A study of Mus musculus with 30 samples.

Results

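The mitochondrial ribosomal protein genes are the 78 protein-coding mouse genes whose GENCODE symbol starts with Mrpl (49 genes, named for the large subunit) or Mrps (29 genes, named for the small subunit). They were chosen by name and by a mean of at least 10 counts in either count table, and all 78 genes with these names met that condition. Of them, 77 were among the 11985 genes tested in the peptide study and 78 among the 12274 genes tested in the antibody study.

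RNA was sequenced from the left ventricle of 30 wild type male C57BL6J mice in 2 separate studies, with 1 library per heart. In the peptide study, mice received daily i.p. injections of recombinant human Aβ42 (7 mice), an amyloid beta peptide prone to aggregate, or of a peptide with its sequence scrambled, ScrAβ42 (7 mice). The labels give an age of 12 weeks and 1 mg per day, whereas the methods of the study give mice of 10 to 12 weeks, 1 µg per day and 4 weeks of injections. In the antibody study, mice received weekly i.p. injections of 0.75 mg/kg of 3D6 (8 mice), an antibody that neutralises Aβ42, or of an isotype control antibody (8 mice). The study describes 4 months of high-fat feeding for these mice, and its methods start the diet 1 week after an assessment at 12 weeks of age. The series description states instead that they had been given Aβ42, and this difference could not be resolved. Each p-value sets the difference between a treated group and the control group of the same study against the spread between mice.

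Mitochondria translate their own mRNAs on a ribosome of their own, which makes the membrane-embedded core subunits of the respiratory chain and ATP synthase. Its rRNAs are transcribed inside the organelle, but every one of its proteins is encoded in the nucleus, made in the cytosol and imported. Heart muscle depends on this machinery for most of its ATP, and inherited defects in several of its proteins, among them MRPL44 and MRPS22, cause cardiomyopathy.

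Total counts ran from 4478991 to 6015767 per heart in the peptide study and from 6397189 to 8310480 in the antibody study. Cardiomyocyte markers were abundant in every heart, with summed levels of 40509 to 85269 CPM (counts per 1e+06 counts) in the peptide study and 45459 to 57493 CPM in the antibody study. Of 7 such markers, 5 were below 0 in each comparison (median log2 fold change -0.115 with Aβ42 and -0.0708 with 3D6). Some hearts also held atrial transcripts: the summed level of 6 atrial markers, Sln, Myl7 and Nppa among them, ranged from 19.1 to 13634 CPM with Aβ42, from 19.1 to 4929 CPM with ScrAβ42, from 2.08 to 1576 CPM with 3D6 and from 11.7 to 6601 CPM with the control antibody, and none of the 6 was at 0 in all hearts of a study. An atrial marker score was therefore kept for each heart (the mean z-score of log2 CPM within a study over those of Sln, Myl7, Myl4, Bmp10 and Mybphl that passed the count filter). Markers of other tissues also differed between the peptide groups, none at an adjusted p under 0.05 in edgeR. With Aβ42, 6 of 6 atrial markers were above 0 (median log2 fold change 2.35, 1 at an unadjusted p under 0.05), with a median summed level of 1775 CPM against 37.5 CPM with ScrAβ42. Also above 0 were 5 of 5 adipocyte markers (median 2.31, 3 at an unadjusted p under 0.05; summed 30.3 to 609 CPM against 27.9 to 92.1 CPM) and 4 of 4 mesothelium markers (median 0.89; 19.2 to 151 CPM against 20.1 to 68.3 CPM). Below 0 were 5 of 5 blood markers (median -1.37; 556 to 5073 CPM against 802 to 15945 CPM), 4 of 4 macrophage markers (median -0.15) and 5 of 5 skeletal muscle markers (median -0.73, 1 at an unadjusted p under 0.05; 25.7 to 78.7 CPM against 56.9 to 145 CPM), as were 3 of 4 endothelial (median -0.11) and 3 of 4 fibroblast markers (median -0.06). With 3D6, markers below 0 were 5 of 5 atrial (median -0.88, although the summed level of all 6 had a median of 186 CPM with 3D6 and 41.1 CPM with the control antibody), 4 of 4 endothelial (median -0.17, with Pecam1 at an unadjusted p under 0.05; summed median 585 CPM against 646 CPM), 2 of 2 mesothelium (median -0.56, with Wt1 at that p; all 4 listed markers summed to 3.75 to 10.8 CPM against 4.09 to 29.3 CPM), 5 of 5 blood (median -0.09), 4 of 4 fibroblast (median -0.06) and 3 of 4 macrophage markers (median -0.11), again none at an adjusted p under 0.05. The part of these tissues in the results was not tested. In these bulk samples, fewer cells of a type and less RNA per cell cannot be told apart.

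Ribosomal protein genes of the mitochondrion were expressed well above the typical nuclear gene, and the level differed widely between members. Levels between genes were compared only per length, as counts per base scaled to the same total in each heart (level per length). The median member stood at 35.0 on this scale in the antibody study, against 7.38 for all 11566 nuclear protein-coding genes tested. In the peptide study, with the same transcript lengths, the medians were 55.5 and 14.5. The large subunit names (median 35.1) and the small subunit names (median 28.9) ran from 6.68 to 325 and from 11.4 to 152 in the antibody study, and the ratio of the 90th to the 10th percentile was 4.62 in each.

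Mrpl42, a large subunit protein with no bacterial counterpart, was the most abundant member in both studies, at 325 ± 28.6 (SD, n = 16) per length in the antibody study and 353 ± 33.6 (SD, n = 14) in the peptide study. Its lowest heart in the antibody study (269) was above the highest heart of the next gene in the order of large subunit names, Mrpl12 (152). Mrpl12, the L7/L12 stalk protein that recruits translation factors, stood at 129 ± 19.2 per length.

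Among the small subunit names, Mrps21 was highest at 152 ± 39.1 per length and Mrps23 followed at 76.6 ± 10.99, and the heart with the least Mrps21 (93.3) lay only just above the heart with the most Mrps23 (92.8). The lowest levels belonged to Mrpl19 (6.68 ± 2.38) and Mrpl1 (8.84 ± 1.43) in the large subunit, whose ranges over hearts overlapped. In the small subunit they belonged to Mrps30 (11.4 ± 1.51) and Mrps22 (12.4 ± 1.60), which also overlapped. Mrpl1 forms the mobile L1 stalk at the exit for tRNA, and Mrps30, despite its name, sits in the large subunit.

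**Figure D1:**
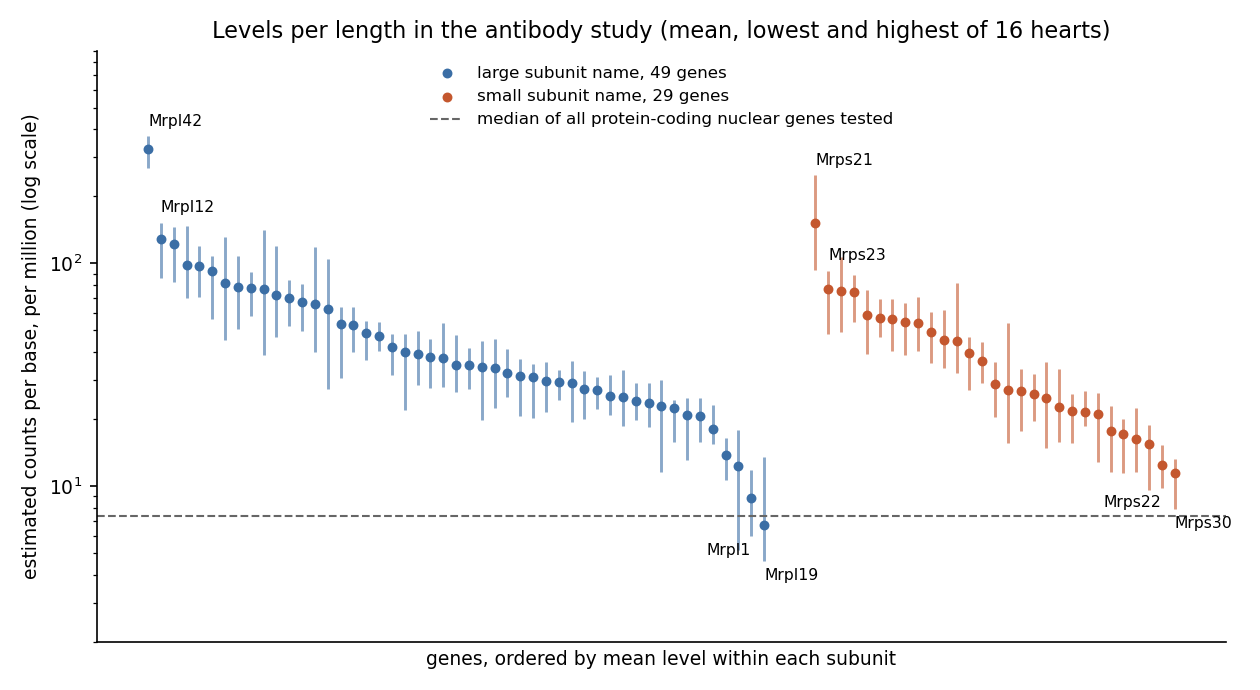
Level per length of each of the 78 genes in the antibody study, on a log scale, as the mean (point) and the lowest and highest (line) of 16 hearts, in order of level within the large subunit names (blue) and small subunit names (orange). Mrpl42 stands alone at the top (325), and only Mrpl19 (6.68) has a mean below the dashed line, the median of all nuclear protein-coding genes tested (7.38).

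The order of members was alike in both studies (Spearman rho 0.733 across the 78 genes, which are not independent replicates), but 5 members were over 3 times higher in CPM in the antibody table. These were Mrps34 (14.5 CPM in the peptide table and 51.9 CPM in the antibody table), Mrps33 (5.75 and 31.1 CPM), Mrps36 (5.14 and 37.8 CPM), Mrpl23 (2.72 and 34.4 CPM) and Mrpl53 (0.0392 and 27.5 CPM). They were singled out after their values were seen. Mrpl53 was thereby the one member left out of the tests of the peptide study. Among all 6123 genes with at least 100 counts on average in the antibody study, 4.62% differed in the same way, against 6.41% of members. The tables were counted and scaled separately, so these are differences between tables and not between treatments.

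With Aβ42, no member passed the test. Of the 77 members, 0 had an adjusted p under 0.05 by the quasi-likelihood test of edgeR with Benjamini-Hochberg adjustment, against 0% of all genes tested, and DESeq2 and limma-voom also called 0 members. Over all 11985 genes, DESeq2 called 12. At an unadjusted p under 0.05, edgeR, DESeq2 and limma-voom each gave 1 member, against 6.51%, 6.1% and 5.74% of all genes tested in turn. That member was Mrps6, which was higher with Aβ42 (3.59% of all genes were higher at this level), while 0 members were lower (2.92% of all genes). In no member did the Aβ42 and ScrAβ42 hearts separate without overlap, which happened for 0.0918% of all genes. A log2 fold change within 0.25 of 0 was found in 75 of 77 members (84.3% of all genes). The standard error of a member was 0.13 at the median.

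The direction over the members leaned slightly towards lower values. A total of 30 of 77 members (50.5% of all genes) had a log2 fold change above 0 and 47 of 77 (49.5% of all genes) below 0. The median log2 fold change was -0.02 over all members, -0.01 over 48 large subunit names and -0.04 over 29 small subunit names, beside 0.00 over all genes tested. Hearts of the peptide study are named here as in the labels, where Abeta42 is Aβ42. This balance depended on single hearts: the number of members above 0 was 53 without Abeta42_3457, 49 without ScrAbeta42_3449, 16 without ScrAbeta42_3448, 18 without Abeta42_3460 and 19 without Abeta42_3456. It was 40 when Abeta42_3457 and ScrAbeta42_3448, both with under 15% mitochondrial counts, were left out together, a choice made after seeing the data. The atrial score averaged 0.469 ± 0.917 with Aβ42 and -0.469 ± 0.722 with ScrAβ42 (SD, n = 7 each). It is thus partly confounded with treatment, and a model with both cannot fully separate them. Once the atrial score entered the model, 71 of 77 members were above 0 (49.1% of all genes) and the median was 0.12. In that model 6 members, all higher with Aβ42, had an unadjusted p under 0.05 in edgeR, beside 2.52% of all genes higher and 4.83% lower.

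With 3D6, again no member passed. Of the 78 members, 0 had an adjusted p under 0.05 in edgeR (0% of all genes), DESeq2 or limma-voom. At an unadjusted p under 0.05, edgeR gave 1 member (3.64% of all genes), DESeq2 gave 2 (3.67% of all genes) and limma-voom gave 2 (3.57% of all genes). The member in edgeR was again Mrps6, here lower with 3D6 (2.32% of all genes), and 0 members were higher (1.32% of all genes). For 0 of 78 members, and for 0% of all genes, did the 2 groups not overlap.

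Most members leaned towards lower values with 3D6. A total of 62 of 78 members were below 0 (52.6% of all genes) and 16 above (47.4% of all genes), with 37 of 49 large subunit names and 25 of 29 small subunit names below. The median log2 fold change was -0.07 over all members, -0.06 over the large and -0.07 over the small subunit names, against -0.01 over all genes, and the median standard error of a member was 0.12. The count above 0 rose to 32 without 3D6 mouse 7, 29 without 3D6 mouse 4, 27 without control antibody mouse 22 and 26 without 3D6 mouse 12. Once the mitochondrial share entered the model, 52 of 78 members were above 0 (49.9% of all genes) and the median was 0.03, and with libraries scaled by total count alone, 6 were above 0 (35.5% of all genes) while the median of all genes moved to -0.06.

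**Figure D2:**
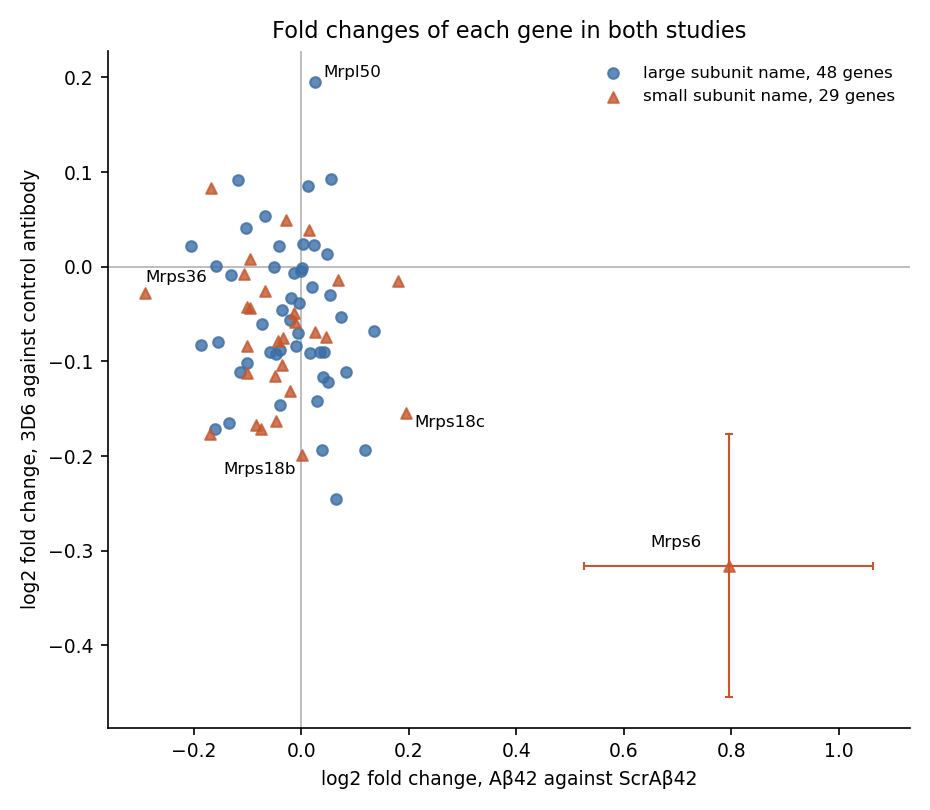
Log2 fold change of each of 77 genes in the peptide study (Aβ42 against ScrAβ42, horizontal axis) and in the antibody study (3D6 against control antibody, vertical axis), with large subunit names as circles and small subunit names as triangles. Mrps6 lies apart at 0.80 and -0.32 (bars, 1 standard error in each study), and 75 of the 77 genes lie within 0.25 of 0 on the horizontal axis (84.3% of all genes tested).

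Seen side by side, 38 of 77 members were lower in both comparisons, 23 were higher with Aβ42 and lower with 3D6, 9 were lower with Aβ42 and higher with 3D6, and 7 were higher in both. Over the 11361 genes tested in both studies these counts were 2760, 3135, 2955 and 2511. The studies shared no mice.

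Mrps6 was the member with the smallest p in each study, and its difference had opposite signs. It encodes bS6m, a small subunit protein on the platform that partners bS18m. Its gene lies on the plus strand at chr16:92058270-92112227 (GRCm38, GENCODE vM21). The 150 bases before its annotated start are shown because the gene shares its start region with a neighbour (RefSeq sequence, GRCm38.p6, chr16:92058120-92058269, plus strand). Capitals mark GC boxes (GGGCGG), and the NRF1 core (GCATGCGC), ETS (CCGGAAG) and YY1 (AAGATGGC) motifs were searched on both strands without a match there.
Mrps6: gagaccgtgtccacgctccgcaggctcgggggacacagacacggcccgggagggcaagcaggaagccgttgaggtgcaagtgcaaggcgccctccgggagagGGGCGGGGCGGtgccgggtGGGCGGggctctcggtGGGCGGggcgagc

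That neighbour is Slc5a3, the sodium/myo-inositol cotransporter, at chr16:92058322-92087473 on the same strand. The RefSeq starts of both genes are 14 bases apart, and the first exon of Mrps6-201 shares 159 bases (chr16:92058322-92058480) with the exons of Slc5a3-201. Reads from this stretch can be given to either gene, so the values of both carry that uncertainty.

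In the peptide study Mrps6 ranged from 16.97 to 60.4 CPM with Aβ42 (median 24.9 CPM, 7 hearts) and from 12.0 to 24.6 CPM with ScrAβ42 (median 16.2 CPM, 7 hearts). All 7 Aβ42 hearts lay above the ScrAβ42 median, yet the groups overlapped, with 3 Aβ42 hearts inside the range of the controls and 4 above it. The log2 fold change was 0.80 (SE 0.27, 95% interval 0.27 to 1.32; edgeR unadjusted p = 0.00948, adjusted p = 0.683).

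The highest Mrps6 values of the peptide study belonged to hearts with atrial transcripts. Abeta42_3457 had 60.4 CPM at an atrial score of 1.38, Abeta42_3458 had 37.1 CPM at 0.971, Abeta42_3455 had 31.9 CPM at 1.52 and Abeta42_3451 had 24.9 CPM at 0.566. The single ScrAβ42 heart with a positive atrial score, ScrAbeta42_3448 at 1.11, was also the ScrAβ42 heart with the most Mrps6, at 24.6 CPM. Abeta42_3460 was the exception, at 17.1 CPM with a score of 0.273. Once the score entered the model, Mrps6 differed by 0.20 on the log2 scale (edgeR adjusted p = 0.869), and without Abeta42_3457 it was 0.51 (edgeR adjusted p = 0.945). A model with the mitochondrial share gave 0.75. The part of atrial tissue in the difference was not tested beyond these values.

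Slc5a3 followed the same hearts. It ranged from 2.38 to 35.2 CPM with Aβ42 (median 8.79 CPM) and from 2.71 to 12.9 CPM with ScrAβ42 (median 4.31 CPM), and Abeta42_3457 and ScrAbeta42_3448 were again the highest of their groups. The groups overlapped, and the log2 fold change was 1.10 (SE 0.53; edgeR adjusted p = 0.763).

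With the antibody, Mrps6 ranged from 10.2 to 19.3 CPM with 3D6 (median 14.9 CPM, 8 hearts) and from 15.1 to 29.8 CPM with the control antibody (median 17.1 CPM, 8 hearts). One of the 8 3D6 hearts lay above the control median, and the groups overlapped. The log2 fold change was -0.32 (SE 0.14, 95% interval -0.59 to -0.04; edgeR unadjusted p = 0.0348, adjusted p = 0.946). Control antibody mouse 15, the heart with the highest atrial score of that study (1.92), had 29.8 CPM where the other 7 control hearts had 15.1 to 18.5 CPM. Without it the log2 fold change was -0.18 (edgeR adjusted p = 0.91), and a model with the atrial score gave -0.34. The 3D6 heart with the most Mrps6, mouse 24 at 19.3 CPM, had an atrial score of -0.747. The 3D6 hearts with atrial scores above 1, mice 20, 7 and 12, had 14.9, 14.4 and 13.9 CPM, inside the range of the other 3D6 hearts. Slc5a3 was near 2 CPM in both groups here, with a log2 fold change of 0.02 (SE 0.30).

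**Figure D3:**
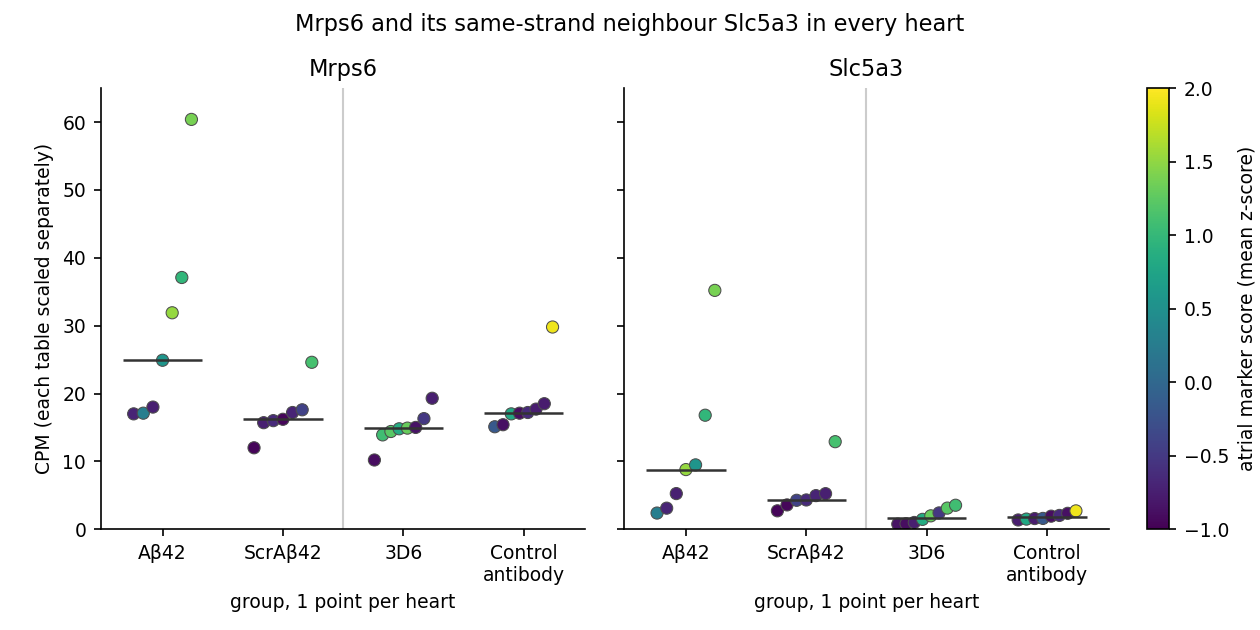
CPM of Mrps6 (left) and Slc5a3 (right) in every heart of the 4 groups, with the group median as a line and the atrial marker score as colour. The peptide and antibody tables were scaled separately. The highest Mrps6 points with Aβ42 (60.4, 37.1 and 31.9 CPM), ScrAβ42 (24.6 CPM) and control antibody (29.8 CPM) are hearts with high atrial scores, whereas the highest point with 3D6 (19.3 CPM) has a score of -0.747.

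The members next in line by p are given here for each study. Of those higher with Aβ42, Mrps18c, the counterpart of bacterial S18 in the small subunit, ranged from 7.26 to 12.0 CPM (median 9.31) with Aβ42 and from 6.77 to 11.5 CPM (median 8.27) with ScrAβ42. Its log2 fold change was 0.20 (SE 0.14; edgeR adjusted p = 0.848). Mrps22, a small subunit protein specific to the mitochondrial ribosome, ranged from 11.02 to 14.5 CPM (median 13.4) with Aβ42 and from 7.54 to 15.3 CPM (median 11.9) with ScrAβ42, a log2 fold change of 0.18 (SE 0.14). The groups overlapped in both genes, with 6 of 7 Aβ42 hearts above the control median in each. Mrpl40 and Mrpl33 completed this side with log2 fold changes of 0.14 and 0.08. With 1 heart left out, the values ran from 0.0927 to 0.252 for Mrps22, 0.0575 to 0.208 for Mrpl40 and 0.0537 to 0.125 for Mrpl33.

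Of those lower with Aβ42, Mrps36 gave the largest difference. Despite its name the protein is a subunit of the 2-oxoglutarate dehydrogenase complex of the tricarboxylic acid cycle. It ranged from 3.63 to 6.55 CPM (median 4.496) with Aβ42 and from 3.87 to 8.52 CPM (median 5.48) with ScrAβ42, at a mean of 27.1 counts per heart. The groups overlapped and the log2 fold change was -0.29 (SE 0.18; edgeR adjusted p = 0.81), and ran from -0.393 to -0.164 with 1 heart left out. In the antibody table, where it was at a mean of 266 estimated counts per heart, its log2 fold change was -0.03 (SE 0.14). Mrps2 (-0.17), Mrpl55 (-0.19), Mrpl22 (-0.13) and Mrpl35 (-0.16) followed, with standard errors of 0.10 to 0.14, and the groups overlapped in each. Once the atrial score entered the model, Mrps2 was at 0.04 and Mrpl55 at 0.00. With 1 heart left out, Mrps2 ran from -0.24 to -0.111 and Mrpl55 from -0.251 to -0.0785. Mrpl22 then ran from -0.186 to -0.0733 and Mrpl35 from -0.21 to -0.0531.

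On the side lower with 3D6, Mrpl19, a protein at the interface of both subunits, ranged from 15.0 to 24.1 CPM (median 18.7) with 3D6 and from 19.6 to 23.5 CPM (median 20.3) with the control antibody. One of 8 3D6 hearts was above the control median, the groups overlapped, and the log2 fold change was -0.19 (SE 0.10; edgeR unadjusted p = 0.0596, adjusted p = 0.946). Mrps18b (-0.20, SE 0.13), Mrps18a (-0.16, SE 0.13) and Mrpl46 (-0.12, SE 0.09) followed, with 2 of 8 3D6 hearts above the control median in each. On the side higher with 3D6, Mrpl50 ranged from 30.7 to 39.2 CPM (median 34.4) against 21.2 to 36.2 CPM (median 31.6), a log2 fold change of 0.20 (SE 0.10; edgeR unadjusted p = 0.0598, adjusted p = 0.946). Mrpl37, Mrpl39, Mrps2 and Mrpl27 had log2 fold changes of 0.08 to 0.09 there. With 1 heart left out, these ran from 0.0603 to 0.135, 0.0472 to 0.133, 0.0223 to 0.12 and 0.0209 to 0.146 in turn.

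Mrpl12, Mrpl44, Mrpl45 and Mrpl58, named for their special roles, lay within 1 standard error of 0 in both comparisons. Mrpl12 ranged from 55.4 to 102 CPM with Aβ42 and from 61.8 to 113 CPM with ScrAβ42 (medians 78.3 and 76.7), and its log2 fold changes were -0.01 (SE 0.14) with Aβ42 and -0.01 (SE 0.13) with 3D6. Mrpl44, which carries an RNase III-like fold, had log2 fold changes of 0.05 (SE 0.12) and 0.01 (SE 0.10). For Mrpl45, which tethers the ribosome to the inner membrane, they were -0.07 (SE 0.19) and -0.06 (SE 0.09). For Mrpl58, the peptidyl-tRNA hydrolase that rescues stalled ribosomes, they were -0.05 (SE 0.14) and -0.09 (SE 0.12). The groups overlapped in all of these. Once the atrial score entered the model, Mrpl12 was at 0.162, Mrpl45 at 0.185 and Mrpl58 at 0.208 with Aβ42. With the mitochondrial share in the model, Mrpl12 was at 0.141 and Mrpl58 at 0.0191 with 3D6.

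At the decoding centre, Mrps12 ranged from 22.0 to 31.4 CPM with Aβ42 and from 20.4 to 31.4 CPM with ScrAβ42, and from 21.3 to 33.7 CPM with 3D6 and 20.6 to 36.5 CPM with the control antibody. Its log2 fold changes were -0.01 (SE 0.10) and -0.06 (SE 0.12). Mrps30 gave -0.04 (SE 0.15) and -0.10 (SE 0.11), and 0.24 with Aβ42 once the atrial score entered the model. The Mrps18 paralogues, of which Mrps18a sits in the large subunit and the others in the small, gave log2 fold changes with Aβ42 of -0.05 for Mrps18a, 0.00 for Mrps18b and 0.20 for Mrps18c, and with 3D6 of -0.16, -0.20 and -0.15, each within 1.5 standard errors of 0.

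Hearts differed from each other far more than groups did, and the members rose and fell together. Over the 2926 pairs of members in the peptide study the median correlation of log2 CPM across the 14 hearts was 0.694, and 92.5% of pairs were above 0, whereas the median over all pairs of genes tested was 0.00. The antibody study gave a median of 0.592 over 3003 pairs and 16 hearts, with 93.1% above 0. Pairs within the large subunit names (0.708 and 0.591), within the small (0.657 and 0.594) and across both (0.691 and 0.594) gave like values. All points of a heart share its library and its scaling, so these values are a description. Mrps6 was the exception in the peptide study, with a mean correlation of -0.62 to the other members, followed by Mrpl23 (-0.27). Mrps6 stood at 0.21 in the antibody study, where Mrps2 was lowest at -0.17.

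The shift of a heart was summarised as the median over members of log2 CPM minus the mean of the study. Abeta42_3457 was lowest at -0.44, with 4 of 77 members above the mean, followed by ScrAbeta42_3448 at -0.26, with 5 of 77. ScrAbeta42_3449 was highest at 0.34, with 70 of 77. By group, the median shift ran from -0.44 to 0.20 with Aβ42 and from -0.26 to 0.34 with ScrAβ42, so the groups overlapped over most of their range.

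Abeta42_3457 and ScrAbeta42_3448 also had the lowest shares of counts on the mitochondrial genome, 12.9% and 13.8%, where the other hearts of that study had 17.3% to 22.2%, and both had atrial scores above 1. Abeta42_3455, the heart with the highest atrial score of that study (1.52), came next at -0.16, with a mitochondrial share of 18.6%. Lowest in the antibody study were the 4 hearts of 3D6 mice 7 (-0.36), 4 (-0.25) and 12 (-0.24) and control antibody mouse 8 (-0.24), with mitochondrial shares of 33.9%, 37.8%, 35.2% and 37.7%. The highest was control antibody mouse 22 at 0.20, with the lowest share, 25.9%. Of the 4 lowest hearts there, those of 3D6 mice 7 and 12 had atrial scores above 1. The scores of 3D6 mouse 4 and control antibody mouse 8 were -0.903 and -0.874. Control antibody mouse 15, with the highest score of that study (1.92), had a shift of -0.06. The shift of 3D6 mouse 20 (score 1.3) was 0.03. The hearts with the 2 lowest mitochondrial shares had the lowest shifts in the peptide study, while the hearts with the 2 highest shares were among the 4 lowest in the antibody study. The part of either share or of atrial tissue in the shifts was not tested.

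**Figure D4:**
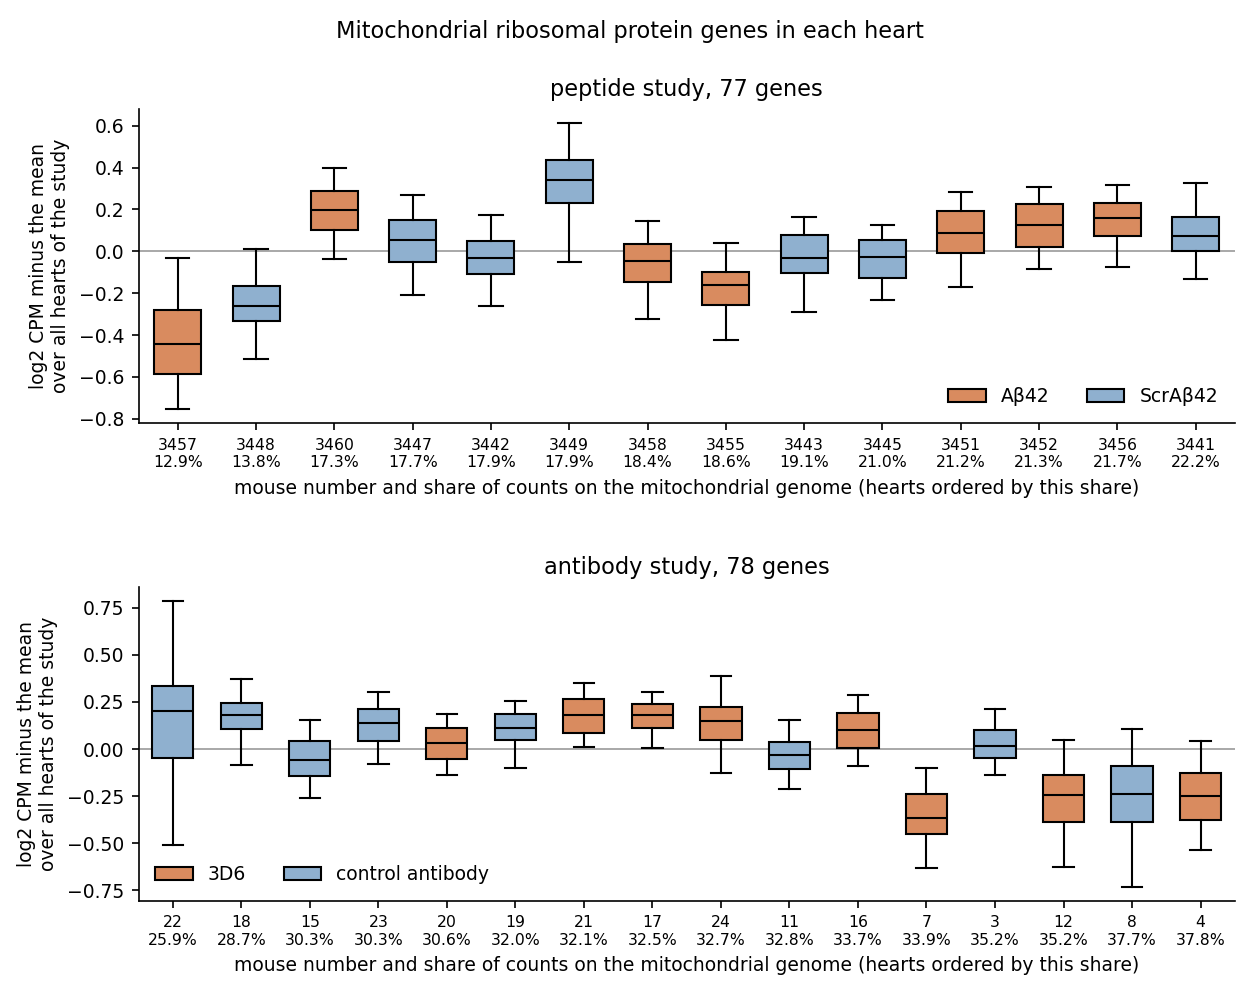
Log2 CPM of each member minus its mean over all hearts of the study, for the 14 hearts of the peptide study (top) and the 16 of the antibody study (bottom), ordered by the share of counts on the mitochondrial genome; boxes give the median and quartiles over members, whiskers the 5th to 95th percentile. The box as a whole moves from heart to heart, lowest in Abeta42_3457 (-0.44) and in mouse 7 (-0.36), while both treatments lie on either side of 0.

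As a share of all counts, members took 0.262% to 0.326% with Aβ42 and 0.272% to 0.353% with ScrAβ42, and 0.217% to 0.313% with 3D6 and 0.219% to 0.353% with the control antibody. The share on the mitochondrial genome itself, whose mRNAs these ribosomes translate, was 18.8 ± 3.09% with Aβ42 and 18.5 ± 2.69% with ScrAβ42 (SD, n = 7 each; exact two-sided permutation test, p = 0.889). It was 33.5 ± 2.18% with 3D6 and 31.6 ± 3.71% with the control antibody (SD, n = 8 each; exact two-sided permutation test, p = 0.226). That difference of 1.92 percentage points ran from 1.11 without control antibody mouse 22 to 2.80 without control antibody mouse 8 (smallest exact p = 0.0541). In the peptide study the difference of 0.249 percentage points ran from -0.534 without ScrAbeta42_3448 to 1.23 without Abeta42_3457. The peptide table lists mt-Nd4l, mt-Co3, mt-Atp6 and mt-Atp8 at 0 in all hearts, so the shares of both studies cannot be set against each other.

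The promoters of the members were searched for motifs known from genes of mitochondrial function. Whether these motifs have a part in the correlations between members was not tested. RefSeq windows from 250 bases before to 50 after the start were at hand for 69 of 78 members and for 16522 protein-coding genes in all. The ETS motif (CCGGAAG) was found in 25 of 69 member windows (36.2%) against 12.3% of all windows, the YY1 motif (AAGATGGC) in 12 (17.4% against 3.29%) and the NRF1 core (GCATGCGC) in 8 (11.6% against 3.76%), on either strand. The NRF1 half-site pair, which contains the core, was in 3 (4.35% against 1.37%). The GC box (GGGCGG; 49.3% against 48.0%) and the CCAAT box (39.1% against 38.7%) were as frequent as elsewhere, and TATAAA was rarer (5.80% against 12.9%). A match is a string of letters and not a site shown to be bound.

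Mrpl22 and Mrpl43 are shown as members with such motifs just before the start, in bases that lie in no annotated exon (RefSeq sequence, GRCm38.p6). Capitals mark ETS motifs in both, and in Mrpl22 also the NRF1 core on the other strand. The bases shown for Mrpl22, which lines the exit tunnel for the nascent peptide, are chr11:58171511-58171660 (plus strand), before the gene at chr11:58171661-58179565. Those shown for Mrpl43 are chr19:45006443-45006557 (minus strand), before the gene at chr19:45004829-45006442 and within an intron of the longer transcript of Twnk, the mitochondrial DNA helicase, on the opposite strand.
Mrpl22: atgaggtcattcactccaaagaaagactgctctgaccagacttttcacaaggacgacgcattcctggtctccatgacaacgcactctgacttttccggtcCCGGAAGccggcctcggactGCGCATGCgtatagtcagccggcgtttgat
Mrpl43: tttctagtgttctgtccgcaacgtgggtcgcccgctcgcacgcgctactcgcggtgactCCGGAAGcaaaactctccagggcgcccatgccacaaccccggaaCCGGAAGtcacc

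Members also often sat head to head with another gene. A protein-coding gene on the opposite strand started within 1000 bases of 18 of 78 members (23.1%), pointing away from it and not overlapping it, against 6.82% of 21832 protein-coding genes. With overlapping starts counted too, there were 33 of 78 members (42.3%) against 10.9% of all genes. The overlapping pairs include Mrpl46 and Mrps11, both members, whose starts are 412 bases apart on chromosome 7. Among the pairs without overlap, Mrps12 and Sars2, the mitochondrial seryl-tRNA synthetase, start 172 bases apart on chromosome 7. Of the neighbours in these pairs, Sars2 had the smallest edgeR unadjusted p in either study (0.0143 with 3D6). The next smallest was 0.132, for Apba3 with Aβ42. Sars2 ranged from 6.39 to 9.99 CPM with 3D6 and from 8.19 to 11.6 CPM with the control antibody, a log2 fold change of -0.30 (SE 0.11; edgeR adjusted p = 0.946), while that of Mrps12 was -0.06. The groups overlapped.

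The antibody study gave estimated counts per transcript, and 138 transcripts of the 78 members were tested. Salmon divides reads shared by transcripts of a gene between them. The error of that division was not measured and is part of the spread between hearts, so the shares below are estimates. For 46 members, over 90% of estimated counts fell on a single transcript, and a median of 97.0% fell on protein-coding transcripts. In 5 members the leading transcript was not annotated as protein-coding. Among these, Mrps26 had 62.1% of its estimated counts on a retained-intron transcript, and Mrpl3 and Mrpl32 had 51.5% and 55.7% on transcripts annotated for nonsense-mediated decay, as chosen after their values were seen. The share of the summed members on protein-coding transcripts was 90.6 ± 0.331% with 3D6 and 90.4 ± 1.14% with the control antibody (SD, n = 8 each).

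Of the 138 transcripts, edgeR gave 0 at an adjusted p under 0.05 (0% of all 20857 transcripts) and 3 at an unadjusted p under 0.05 (2.40% of all transcripts). All 3 were lower with 3D6 (1.44% of all transcripts), none was higher (0.959%), and 97 of 138 were below 0 (51.0% of all transcripts). The retained-intron transcript Mrps24-201 was at 1.06 ± 0.633 CPM with 3D6 and 2.50 ± 1.79 CPM with the control antibody (SD, n = 8 each), a log2 fold change of -1.22 (SE 0.47; edgeR adjusted p = 1.00). A transcript of Mrpl13 annotated for nonsense-mediated decay was at -0.75 (SE 0.34) and the coding Mrps6-201 at -0.32 (SE 0.15). The transcripts with the smallest p among those higher with 3D6 were Mrpl50-201 (0.19), a transcript of Mrpl35 annotated for nonsense-mediated decay (0.34) and Mrps17-203 (0.26). The retained-intron transcript was at a mean of 12.4 estimated counts per heart, and the groups overlapped in all 6.

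The wider machinery of mitochondrial translation was described by lists chosen with earlier results of these data known, and no gene of any list passed an adjusted p of 0.05 in edgeR in either study. The counts above 0 stand beside 50.5% of all genes with Aβ42 and 47.4% with 3D6, and many changed with 1 heart or with the atrial score or mitochondrial share in the model. The 5 mitoribosomal proteins without these prefixes (such as Dap3 and Ptcd3) had 2 genes above 0 with Aβ42 and 2 with 3D6, with medians of -0.02 and -0.08. The count with Aβ42 was 0 without Abeta42_3460, ScrAbeta42_3442 or ScrAbeta42_3448, 1 without Abeta42_3451, Abeta42_3456 or ScrAbeta42_3443, 4 without Abeta42_3457, and 5 with the atrial score. The count with Aβ42 was also 1 in limma-voom or with the mitochondrial share. With libraries scaled by total count, the count with 3D6 was 1. Gadd45gip1 had the smallest p of that list in both studies, with log2 fold changes of -0.09 (SE 0.14) and -0.21 (SE 0.13). Of the initiation, elongation and release factors, 4 of 11 were above 0 with Aβ42 and 7 of 12 with 3D6, with 0 at an unadjusted p under 0.05. The count with Aβ42 was 9 without Abeta42_3457, 7 without Abeta42_3455 and 9 with the atrial score. Mtrf1l, a release factor, was at -0.27 (SE 0.16) with Aβ42 and Gfm1, an elongation factor, at 0.16 (SE 0.14) with 3D6.

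Of the assembly and rRNA modification factors, 13 of 28 were above 0 with Aβ42 (20 of 28 with the atrial score in the model), and 1 was higher (3.59% of all genes) and 2 lower (2.92% of all genes) at an unadjusted p under 0.05. Mrm1, a methyltransferase of the large rRNA, ranged from 16.8 to 24.6 CPM with Aβ42 and from 16.6 to 21.2 CPM with ScrAβ42. The groups overlapped, and the log2 fold change was 0.29 (SE 0.09; edgeR adjusted p = 0.644). The lower ones were the GTPase Mtg1 (-0.21, SE 0.08) and the helicase Dhx30 (-0.19, SE 0.07). With 3D6, 18 of 29 were above 0, and Ybey, which processes rRNA in bacteria and mitochondria, was higher at an unadjusted p under 0.05 (1.32% of all genes) with a log2 fold change of 0.37 (SE 0.17; edgeR adjusted p = 0.946).

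Of 22 mitochondrial aminoacyl-tRNA synthetases, 7 were above 0 with Aβ42 and 16 with 3D6. With Aβ42 none had an unadjusted p under 0.05, and with 3D6 1 was higher (1.32% of all genes) and 1 lower (2.32% of all genes) at that level. Lars2 had the smallest p with Aβ42 and ranged from 50.8 to 285 CPM with Aβ42 and from 57.3 to 553 CPM with ScrAβ42 (log2 fold change -0.84, SE 0.52). The one lower with 3D6 was Sars2. Without both hearts under 15% mitochondrial counts, 11 were above 0 with Aβ42. With Aβ42 the 7 above 0 became 2 without Abeta42_3460, 4 without Abeta42_3456, 3 without ScrAbeta42_3448, 11 without Abeta42_3457 and 16 with the atrial score, and with 3D6 the 16 became 10 with the mitochondrial share. The 14 genes of mitochondrial transcription and RNA stability had 5 above 0 with Aβ42, where the polymerase Polrmt was at -0.21 (SE 0.11), and 6 with 3D6, where the elongation factor Tefm was at -0.22 (SE 0.18). The 5 became 2 without ScrAbeta42_3448, 3 without Abeta42_3456, Abeta42_3460 or ScrAbeta42_3443, 8 without Abeta42_3457 and 12 with the atrial score, and the 6 became 2 with the mitochondrial share.

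Of the 12 genes for insertion and quality control of the products, 0 were above 0 with Aβ42 and 8 with 3D6, with medians of -0.08 and 0.02. The count with Aβ42 was 6 without Abeta42_3457, 4 without ScrAbeta42_3449, 3 without Abeta42_3455 or ScrAbeta42_3441, 1 without Abeta42_3456 or ScrAbeta42_3445, and 10 with the atrial score, and the count with 3D6 was 4 without control antibody mouse 22 or with total counts, and 5 with the mitochondrial share. Phb, a prohibitin of the inner membrane, was at -0.14 (SE 0.12) with Aβ42 and the protease subunit Clpx at 0.22 (SE 0.13) with 3D6. None of these 12 had an unadjusted p under 0.05 in either study. With Aβ42 their count above 0 was also 3 with total counts or without both hearts under 15% mitochondrial counts. It was 1 with upper-quartile size factors, with no filter or with at least 10 counts in every heart. The mRNAs of the mitochondrial genome were above 0 for 4 of 7 genes with Aβ42 and for 12 of 13 with 3D6, with medians of 0.00 and 0.14, and mt-Nd4 (-0.06, SE 0.16) and mt-Atp6 (0.21, SE 0.13) had the smallest p. The count with Aβ42 was 0 without ScrAbeta42_3448, 1 without Abeta42_3451, Abeta42_3452 or Abeta42_3456, 7 without Abeta42_3457, 7 with the atrial score and 1 with the mitochondrial share. Both mitochondrial rRNAs were below 0 in both studies, mt-Rnr1 by -0.31 (SE 0.21) and mt-Rnr2 by -0.21 (SE 0.20) with Aβ42, and by -0.13 (SE 0.13) and -0.12 (SE 0.11) with 3D6. With the atrial score in the model, both were above 0 with Aβ42.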

How the data were processed

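Left ventricular RNA was sequenced by the authors from total RNA libraries (TruSeq Stranded Total RNA) and mapped with Salmon to the GENCODE vM24 transcriptome of GRCm38. The peptide table was deposited as counts of whole reads for each gene, without normalization. For the antibody study, they deposited estimated counts per transcript, not normalized. In the peptide table, 1 column matched no labelled mouse and was not used.

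Estimated counts were summed to genes through GENCODE vM21 and rounded. Transcripts not in this annotation (0.381% of estimated counts) were kept as features of their own. Features with a mean of at least 10 counts were tested with edgeR 4.0.16 (R 4.3.3; TMM, quasi-likelihood test, two-sided, Benjamini-Hochberg adjustment over all features), with treatment as the only term. The self-test on simulated counts passed. It used changes far larger than those of most members and set no minimum share recovered for transcripts. It therefore does not show whether changes of the sizes seen here would be called. CPM used TMM library sizes, and log2 CPM a prior count of 2. Standard errors were derived from the fold change and its test statistic. The 95% intervals took a normal approximation, so they are somewhat narrower than the test implies. Lengths were averages of transcripts weighted by use in the antibody study. Shares were compared by exact permutation over mice. Counts of 2 hearts of a group always differed beyond sampling noise.

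Named members were the 5 with the smallest p in each direction and study, the 2 highest and lowest per length in each subunit, members with a special role, any past the adjusted threshold or without overlap, and the 3 transcripts with the smallest p per direction. Log2 fold changes are given for members named by p in that study or by role. Members and lists were chosen with earlier results of these data known.

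Alternatives were DESeq2 1.42.0, limma-voom (limma 3.58.1), 3 other scalings, 2 other filters, atrial score or mitochondrial share as a covariate, the mitochondrial genome left out, coding transcripts alone and each heart left out.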

Additional observations from a re-analysis of the deposited data

Results flagged for a closer look

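In 7 of 120 groups of values, 1 heart stood apart from the other hearts of its group by Dixon's ratio, of which chance flags about 1 in 20. In the peptide study these were ScrAbeta42_3449 with Mrpl12 at 113 CPM (others 61.8 to 78.5 CPM), and ScrAbeta42_3448 with Mrpl40 at 14.4 CPM (others 19.8 to 23.7 CPM) and Mrps30 at 17.3 CPM (others 26.004 to 32.978 CPM). ScrAbeta42_3449 and ScrAbeta42_3448 were also the hearts of that group with the highest and the lowest median over members.

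In the antibody study, 3D6 mouse 7 had Mrpl37 at 47.3 CPM (others 55.1 to 61.9 CPM) and control antibody mouse 8 had Mrps12 at 20.6 CPM (others 28.0 to 36.5 CPM). Control antibody mouse 22 had Mrps23 at 48.3 CPM (others 64.6 to 80.3 CPM), and control antibody mouse 15 had Mrps6 at 29.8 CPM (others 15.1 to 18.5 CPM).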

How the results depend on the processing

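No member or member transcript passed an adjusted p of 0.05 under any alternative run. With the atrial score as a covariate, which is partly confounded with treatment, the number of members above 0 in the peptide study was 71. Of these, 6 had an unadjusted p under 0.05 (2.52% of all genes higher). The number above 0 ran from 16 to 53 with 1 heart left out. The number lower at that p then ran from 0 to 1 (2.33% to 3.96% of all genes). It was 1 with the mitochondrial share as a covariate (4.68% of all genes). In the antibody study the number above 0 was 52 with that covariate, with 0 lower at an unadjusted p under 0.05 (2.26% of all genes). With total counts it was 6, with 2 lower (3.57% of all genes). limma-voom also gave 2 lower (2.13% of all genes) and DESeq2 1 higher (1.59% of all genes). With 1 heart left out, 11 to 32 were above 0, 0 to 2 lower (1.29% to 3.7% of all genes) and 0 to 1 higher (0.788% to 2.58%). Member transcripts at that p numbered 3 of 138 in the main run (2.4% of all transcripts). They numbered 1 with a mean of at least 50 counts and 0 to 5 with 1 heart left out. Counts under these alternatives were not set beside the share of all transcripts under the same setting. The difference in mitochondrial share in the peptide study ran from -0.534 to 1.23 percentage points with 1 heart left out, and in the antibody study from 1.11 to 2.80. The cause was not tested.

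The following log2 fold changes changed sign, those of Mrpl55 and Mrps2 with Aβ42 from -0.19 and -0.17. With the atrial score, those with Aβ42 became 0.162 for Mrpl12, 0.185 for Mrpl45, 0.00135 for Mrpl55, 0.208 for Mrpl58, 0.102 for Mrps12, 0.107 for Mrps18a, 0.0379 for Mrps2 and 0.242 for Mrps30, and those with 3D6 became 0.00811 for Mrpl12 and 0.00328 for Mrps36. With the mitochondrial share, those with 3D6 became 0.141 for Mrpl12, 0.0191 for Mrpl58, 0.0727 for Mrps12, -0.00201 for Mrps2 and 0.0929 for Mrps36, and Mrps18b with Aβ42 became -0.0214. Mrps18b with Aβ42 was -0.00193 in DESeq2, -0.000785 with RLE factors, -0.0475 in limma-voom and -0.000106 without the mitochondrial genome. Total counts gave 0.0041 for Mrpl12 and 0.0155 for Mrps12 with Aβ42, and -0.0317 for Mrpl44 with 3D6. No filter gave 0.00821 for Mrpl12 with 3D6. Without both hearts under 15% mitochondrial counts, Mrpl12 was 0.00354 and Mrps18a 0.0108 with Aβ42.

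With 1 heart left out, the values with Aβ42 ran from -0.0915 to 0.0954 for Mrpl12, -0.00554 to 0.132 for Mrpl44, -0.163 to 0.0929 for Mrpl45, -0.126 to 0.025 for Mrpl58, -0.075 to 0.0479 for Mrps12, -0.159 to 0.059 for Mrps18a, -0.0703 to 0.0981 for Mrps18b and -0.125 to 0.0485 for Mrps30, and those with 3D6 from -0.0751 to 0.0418 for Mrpl12, -0.0304 to 0.0557 for Mrpl44 and -0.085 to 0.0341 for Mrps36. Other values with 3D6 moved without a change of sign when 1 heart was left out. They ran from -0.225 to -0.104 for Mrps18a, -0.222 to -0.0666 for Mrps18c, -0.148 to -0.0784 for Mrpl46 and -0.159 to -0.0538 for Mrps30. They also ran from -0.143 to -0.0366 for Mrpl58, -0.121 to -0.00502 for Mrps12 and -0.0956 to -0.0192 for Mrpl45. Mrps6 kept its sign in every alternative run, from 0.20 to 0.91 with Aβ42 and from -0.38 to -0.18 with 3D6. No paired analysis was possible because the groups share no replicate numbers.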
